A study of Mus musculus with 12 samples.

Results

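ATAC-seq, which counts where a transposase can cut open chromatin, was compared between wild-type (WT) and SgshKO mice in Olig2+ nuclei, and the places described here are the Olig2+ peaks that were at least 1.5 times higher in SgshKO. A peak was taken where the lower of the values of its SgshKO libraries was at least 15 normalized tags and at least 1.5 times the higher of its WT values. Normalized tags are reads per peak, scaled to 10000000 per library. The rule found 1726 peaks, called members below, among 82577 Olig2+ peaks (2.09%), or among the 35965 peaks whose lower SgshKO value reached 15 (4.8%). The 3 tables of the series hold 281974 peaks. With the genotypes exchanged the rule took 3168 Olig2+ peaks. Applied to the other sorts it took 3182 NeuN+ peaks (2.96%) and 5653 microglia peaks (6.16%).

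All mice were C57BL/6 and 4 months old, and the tissue was forebrain. The WT and SgshKO groups of each sort had 2 libraries, so the series has 6 groups and 12 libraries. The labels call the mutant SgshKO without giving the allele, and do not say how many mice a library holds or whether libraries came from separate mice, so p-values measure the spread between libraries, which may be technical. Olig2+ nuclei were lightly fixed and sorted as PU.1-/OLIG2+/NEUN-, NeuN+ nuclei likewise as PU.1-/OLIG2-/NEUN+, and microglia were live cells gated on CD11b, CX3CR1 and a low level of CD45.

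Sgsh encodes the lysosomal enzyme sulfamidase, which removes sulfate groups during the breakdown of heparan sulfate, and its loss causes mucopolysaccharidosis type IIIA (Sanfilippo syndrome type A), a lysosomal storage disease of the brain. OLIG2 is a transcription factor of the oligodendrocyte lineage, so the OLIG2+ gate takes both the precursors and the myelin-forming cells. A peak of accessible chromatin marks a promoter or another regulatory element that proteins can reach. The MiT/TFE factors MITF, TFEB and TFE3, which the series' design names, drive lysosomal genes through sites with the core CACGTG.

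All 10 mature oligodendrocyte markers and 9 of 10 precursor and lineage markers had a peak within 1000 bp of a start site in the Olig2+ table. The tags summed over those peaks were 3161 to 3177 in WT and 2533 to 2594 in SgshKO for the mature list, and 1444 to 1460 and 1514 to 1538 for the precursor list. Loss of a cell type and less accessible chromatin per cell cannot be told apart in such bulk libraries. Of the other cell types, 4 of 10 astrocyte markers (54.2 to 56.5 tags in WT, 59.8 to 69.5 in SgshKO), 4 of 10 neuron markers (42.5 to 51.6 and 59.2 to 60.3), 2 of 10 microglia markers (233 to 240.2 and 271 to 284) and 1 of 10 endothelial markers (2.56 to 3.63 and 8.61 to 10.6) had such a peak, and none of the blood myeloid markers had. Cx3cr1, P2ry12, Csf1r, Tmem119 and Spi1, which define microglia, were among those without one. The part of these shifts in the members' values was not tested. At Sgsh itself the start-site peak stood at 65.9 and 74.2 tags in WT and 60.9 and 69.1 in SgshKO Olig2+ nuclei, so this peak does not check the knockout.

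Sequence was available for promoters only, as RefSeq windows of assembly GRCm38.p6 (mm10) from 250 bases before to 50 after a start site. Of the 461 members within 1000 bp of a start site, 222 overlapped a window, and they covered 258 windows of 237 genes. The 250 bases upstream of the start site are shown 5′ to 3′ for 5 genes on which the description turns. Bcl3, Flnc and Mt2 are among the start-site members with the largest ratios, and Apoe and Lamp1 stand for the disease-associated and lysosome lists. Capitals mark matches on either strand to CACGTG (the E-box of MiT/TFE factors), TGANTCA (AP-1), TGACGTCA (the cyclic AMP response element), CAGCTG (an E-box of other factors), GGGCGG (SP factors) or the palindromic glucocorticoid response element. ACAANG, the SOX core, was counted below.
Bcl3, chr7:19822756-19823005, minus strand: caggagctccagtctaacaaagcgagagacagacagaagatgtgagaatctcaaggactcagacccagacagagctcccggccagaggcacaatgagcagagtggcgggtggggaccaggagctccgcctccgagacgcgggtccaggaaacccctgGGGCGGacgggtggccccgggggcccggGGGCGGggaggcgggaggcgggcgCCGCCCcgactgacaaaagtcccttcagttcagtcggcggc
Flnc, chr6:29433006-29433255, plus strand: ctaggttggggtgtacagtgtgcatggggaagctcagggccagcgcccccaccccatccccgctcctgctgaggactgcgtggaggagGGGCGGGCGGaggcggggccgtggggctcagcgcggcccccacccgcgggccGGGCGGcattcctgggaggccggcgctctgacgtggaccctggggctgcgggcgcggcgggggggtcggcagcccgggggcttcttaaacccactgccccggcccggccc
Mt2, chr8:94172368-94172617, plus strand: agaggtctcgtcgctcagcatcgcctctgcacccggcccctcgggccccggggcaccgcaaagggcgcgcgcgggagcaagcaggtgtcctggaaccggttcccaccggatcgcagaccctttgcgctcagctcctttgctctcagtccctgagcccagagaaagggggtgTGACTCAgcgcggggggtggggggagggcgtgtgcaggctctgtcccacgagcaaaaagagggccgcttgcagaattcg
Apoe, chr7:19699189-19699438, minus strand: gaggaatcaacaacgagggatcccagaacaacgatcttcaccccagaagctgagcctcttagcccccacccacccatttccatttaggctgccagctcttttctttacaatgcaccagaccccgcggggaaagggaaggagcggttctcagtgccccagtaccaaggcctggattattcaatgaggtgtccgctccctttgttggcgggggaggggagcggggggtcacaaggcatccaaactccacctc
Lamp1, chr8:13158911-13159160, plus strand: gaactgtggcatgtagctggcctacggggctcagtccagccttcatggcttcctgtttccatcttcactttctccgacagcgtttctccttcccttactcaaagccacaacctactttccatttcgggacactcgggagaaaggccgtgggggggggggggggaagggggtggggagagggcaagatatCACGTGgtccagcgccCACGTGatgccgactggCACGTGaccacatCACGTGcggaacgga

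The Bcl3 and Flnc stretches held 3 GGGCGG matches each, Mt2 held 1 TGANTCA match, and Apoe held none of the marked motifs. Lamp1 held 4 CACGTG matches. Only 8 of the 32817 windows in the RefSeq table held 4 or more CACGTG. An Olig2+ start-site peak overlapped 4 of those windows, and 2 of the 4 peaks were members, at Lamp1 and at Zmym6 (61.2 and 65.5 tags in WT, 103.9 and 101.7 in SgshKO). The others were at Mfsd1, a lysosomal transporter gene (27.5 and 26.6, then 30.7 and 25.9), and Cdk4 (458 and 430.1, then 631 and 608). These windows were picked after their values were seen.

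As a set, members' windows were not richer in CACGTG. They held it in 7.75% of cases, windows under other peaks at or above 15 tags in 11.1% and all windows in 7.15%. Their median GC content was 69%, against 63% and 52.7%, and their median number of CpG was 28, against 24 and 7. GGGCGG was present in 78.7%, 72.4% and 35.6% of the 3 sets. TGANTCA (3.88%, 3.45% and 7.81%), TGACGTCA (4.26%, 4.01% and 1.79%), CAGCTG (14.7%, 14.4% and 16.3%), ACAANG (30.6%, 29.9% and 41.3%) and the glucocorticoid response element (0.388%, 0.277% and 0.475%) were present in similar shares of members' windows and of other windows under peaks of that height. Both strands were searched and matches of different motifs could overlap. A match describes letters only, not a bound site.

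Members were chosen by their Olig2+ tag values, so those values are given as a description, with no test. The median member had 14.5 and 14.8 tags in WT and 30.1 and 30.6 in SgshKO, which came from a median of 28 and 29 reads in WT and 49 and 46 in SgshKO. The median ratio of the lower SgshKO to the higher WT value was 1.71. It was at least 2 at 375 members, at least 3 at 44 and at least 5 at 5, and it was under 1.6 at 494. The lower SgshKO value was under 20 at 481 members and 100 or more at 184. The last members inside the ratio threshold were peaks at Lmo4 (58.6 and 59.8 tags in WT, 89.8 and 91.7 in SgshKO), Pou2f1 and Elfn2. The first outside were at Fgr (50.8 and 53.2, then 82.4 and 79.8), Prkd3 (76.2 and 62.9, then 114 and 127) and Gadd45gip1 (17.6 and 12.8, then 26.4 and 29.2). The ratio of SgshKO replicate 1 to replicate 2 had a median of 0.985 over the members, with 80% of members between 0.809 and 1.18.

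The largest ratio was at chr1:24613018-24613218, an intergenic peak whose nearest gene is Col19a1. It held 0 tags in both WT libraries and 731 and 693 in SgshKO, at least 445-fold higher when WT is set to 3 reads per library. The same place held 0 tags in both WT NeuN+ libraries and 489 and 514 in SgshKO, and no microglia peak was listed there. How reads that map to several places were handled is not given in the sources used here, so reads of this place cannot be told apart from reads of another copy of its sequence. The intron peak of Cfap46 had 0.52 and 1.02 tags in WT and 23.4 and 25.3 in SgshKO. The next were distal peaks nearest to Sash1, Gm20758, C8b, Mid1ip1, Thumpd3, Prim2 and Mylk4, with ratios from 4.16 to 5.33 and no peak in either other sort.

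The members within 1000 bp of a start site with the largest ratios had low values in WT. At the promoter of Bcl3, a nuclear partner of NF-kB, the values were 4.15 and 4.09 tags in WT and 25.2 and 17.9 in SgshKO. The peak nearest to the microRNA gene Mir3057 had 6.22 and 6.65 tags, then 27.1 and 23.9. Wfdc18 had 9.85 and 12.3 tags, then 57.2 and 43.2. Flnc, which encodes the actin cross-linker filamin C, had 3.63 and 4.60, then 15.99 and 22.6. Eya4, a transcriptional co-activator gene, had 4.67 and 5.11, then 26.4 and 16.6. Mt2, which encodes a metallothionein, a small protein that binds zinc and other metals, had 12.4 and 12.8, then 38.1 and 39.9. The groups are apart in all 6, which the rule fixes.

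**Figure D1:**
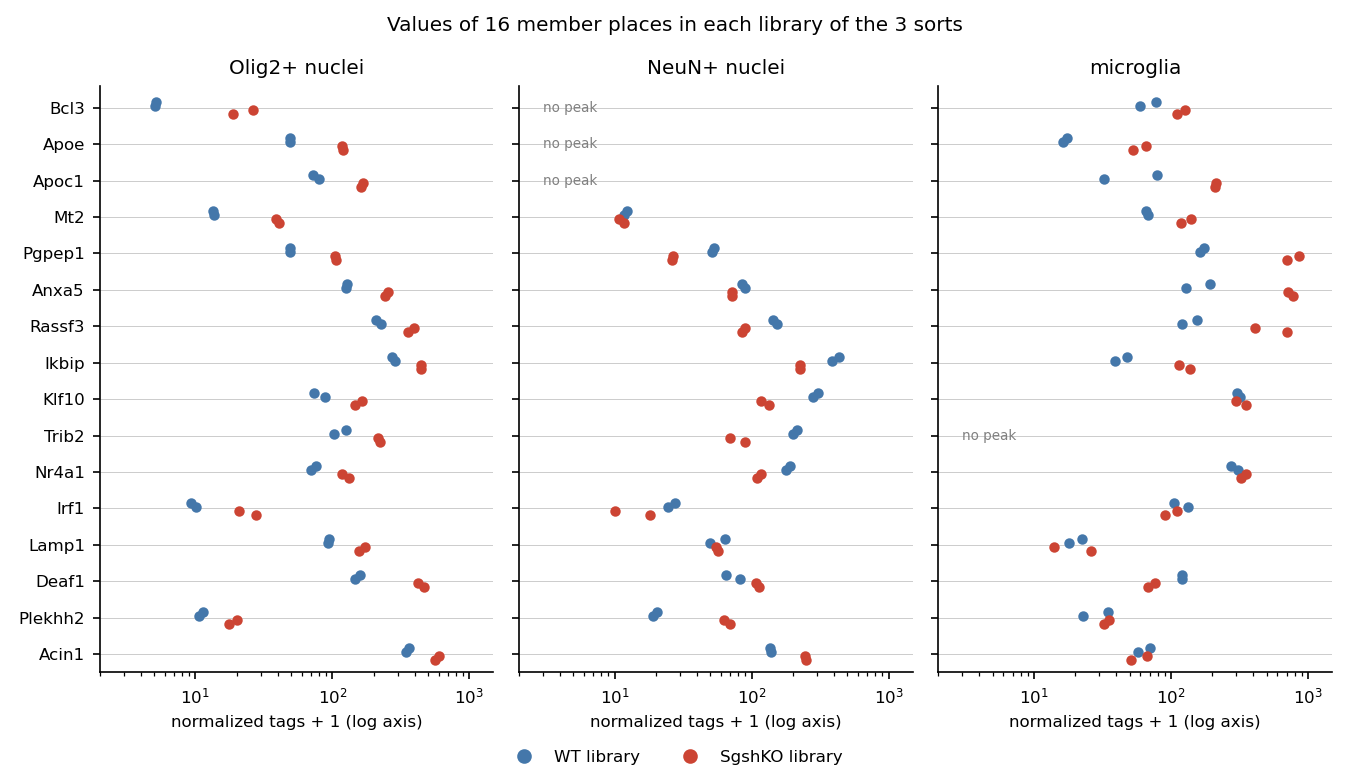
Normalized tags plus 1 on a log axis at 16 members, in the 2 WT (blue) and 2 SgshKO (red) libraries of Olig2+ nuclei, NeuN+ nuclei and microglia; for each gene the member nearest to a start site is drawn. The Olig2+ groups are apart by the rule, while the red points lie below the blue at Klf10, Trib2 and Ikbip in NeuN+ nuclei and above them at Pgpep1, Anxa5 and Rassf3 in microglia.

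A smaller share of members than of other peaks at or above 15 tags lay at promoters. By the annotation of the deposited table, 653 members (37.8%) were intronic, 517 (30.0%) intergenic, 334 (19.4%) at a promoter and 129 (7.47%) in an exon. Among the other peaks at or above 15 tags, 32.3% were at a promoter and 3.49% in an exon. Of the peaks taken with genotypes exchanged, 6.88% were at a promoter and 2.02% in an exon. Within 1000 bp of a start site lay 461 members (26.7%), against 39.8% of the others and 24.4% of all Olig2+ peaks. The gap differed with height: among peaks with a mean SgshKO value of 15 to 25 tags, 21.3% of members and 20.8% of others were within 1000 bp of a start site, and among those of 100 or more it was 39.5% and 68.2%. CpG islands held the centre of 7.24% of members, against 4.91% of the others and 0.821% of the peaks taken with genotypes exchanged. The median member was 261 bp wide and the median other peak 241 bp. These shares are descriptions without a test.

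**Figure D2:**
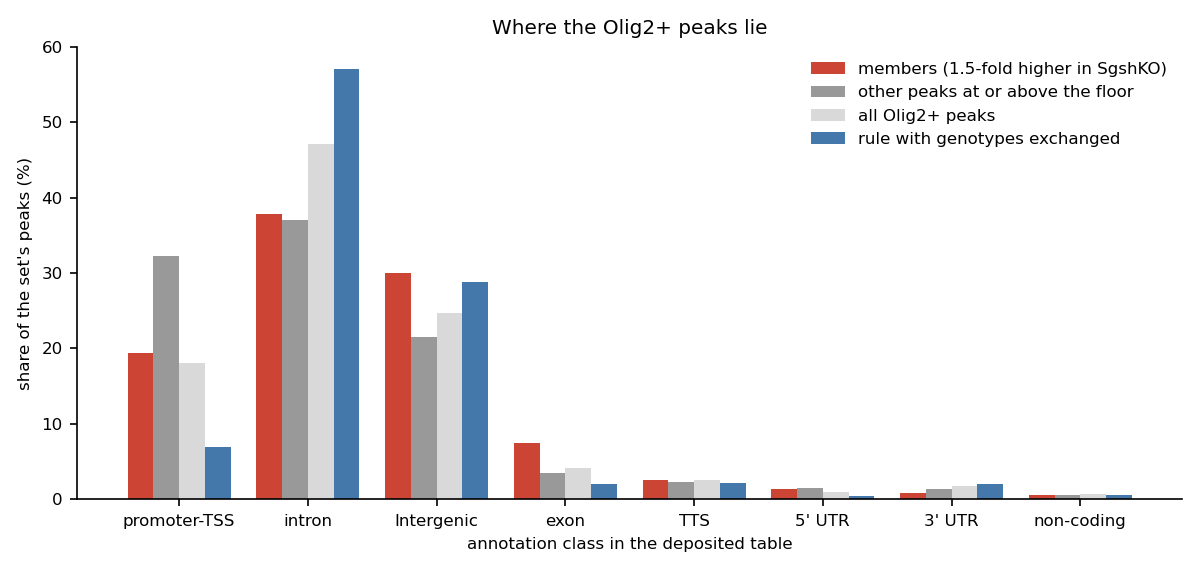
Share of peaks (%) in each annotation class of the deposited table, for members, other Olig2+ peaks with a lower SgshKO value of at least 15, all Olig2+ peaks, and peaks taken by the rule with genotypes exchanged. Members are at a promoter in 19.4% of cases, between the 32.3% of other peaks of that height and the 6.88% of the exchanged rule.

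Chromosome 10 held 173 members (10.0%), although it held 5.11% of the other peaks at or above 15 tags. Of the 173, runs of 50, 34 and 22 members lay in the same stretch of the chromosome, described below. The remaining numbered chromosomes and X each held 1.33% to 8.23% of the members. Unplaced contigs held 9 members (0.521% against 0.0730%), of which 5 were nearest to Pisd-ps3, a pseudogene whose reads may be shared with near-identical copies. Members made up 7.25% of the peaks at or above 15 tags where fewer than 5 protein-coding genes lay within 500000 bp, 3.74% to 3.90% where 10 to 29 did, and 8.12% where 60 or more did. Among peaks farther than 1000 bp from a start site that last share was 10.5%. The densest group held only 42 members among 517 peaks, and the chromosome 10 run of 34 members had a median of 60.5 such genes.

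**Figure D3:**
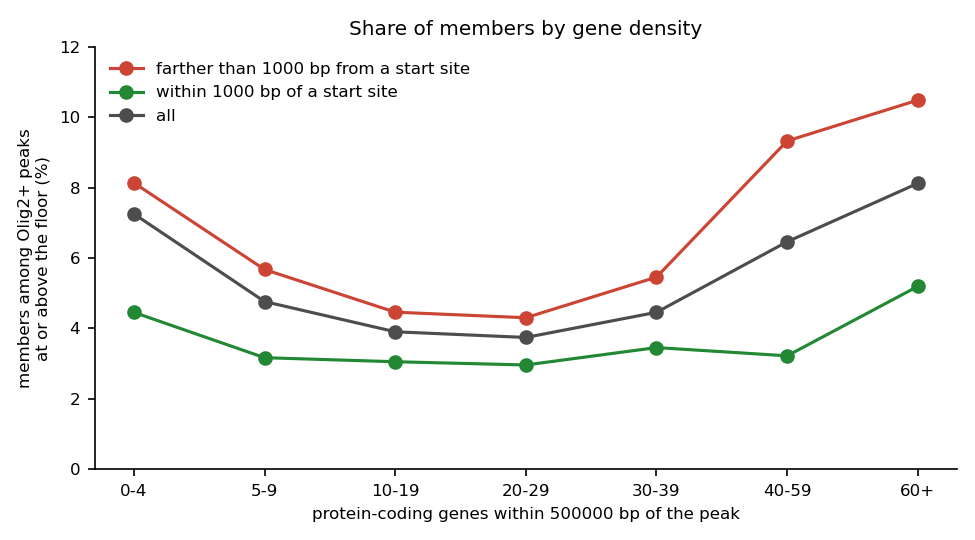
Members as a share (%) of Olig2+ peaks with a lower SgshKO value of at least 15, by how many protein-coding genes lie within 500000 bp, for all peaks and by distance from a start site. The share is highest at both ends, 7.25% where fewer than 5 genes are near and 8.12% (42 of 517 peaks) where 60 or more are.

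Most members stood alone (896 of 1726), and 524 lay in 96 runs of 3 or more with less than 100000 bp between neighbours. Another member lay within 100000 bp of 830 members (48.1%), against 59.5% for the more numerous peaks taken with genotypes exchanged. Of all peaks at or above 15 tags, 95.8% had another such peak within that distance. The 3 runs with most members followed each other on chromosome 10. From 79671893 to 79765566 lay 22 members among 56 peaks at or above 15 tags, 7 of them nearest to Hcn2, which encodes a pacemaker cation channel, and 7 to Polrmt, the mitochondrial RNA polymerase. From 79930675 to 80414552 lay 34 of 175, with Midn (6), Efna2 (4), which encodes an ephrin ligand, and Mbd3 (4), a subunit of the NuRD complex. From 80566825 to 81555731 lay 50 of 300, with Nfic (5), a nuclear factor I gene, and Plekhj1 (4).

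The peaks between the members are described without a test, since runs were chosen by SgshKO values and the floor of 15 tags is set on SgshKO. In the run of 50 the other 250 peaks at or above 15 tags had a median log2 change of 0.29, and both SgshKO libraries were above both WT libraries at 141 and below at 36. Over all other peaks at or above 15 tags the median change was 0.02, with 32.2% above and 30.5% below (26.4% and 34.9% of all Olig2+ peaks). In the run of 22 the count was 25 of 34 above and none below, and in the run of 34 it was 71 of 141 above and 29 below. On chromosome 8, 21 members from 120267755 to 120598861 fell between A330074K22Rik (8) and Gse1 (11), and the 132 other peaks there had a median of 0.27. In the run of 14 from 70529214 to 70868812 on the same chromosome the 115 other peaks had a median of 0.06, with 39 above and 35 below. Of the 81 runs that held other peaks at or above 15 tags, 9 had a median below 0. The run at Lactbl1 (6) and Ephb2 (4), which encodes an ephrin receptor, on chromosome 4 took 10 of 13 such peaks.

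**Figure D4:**
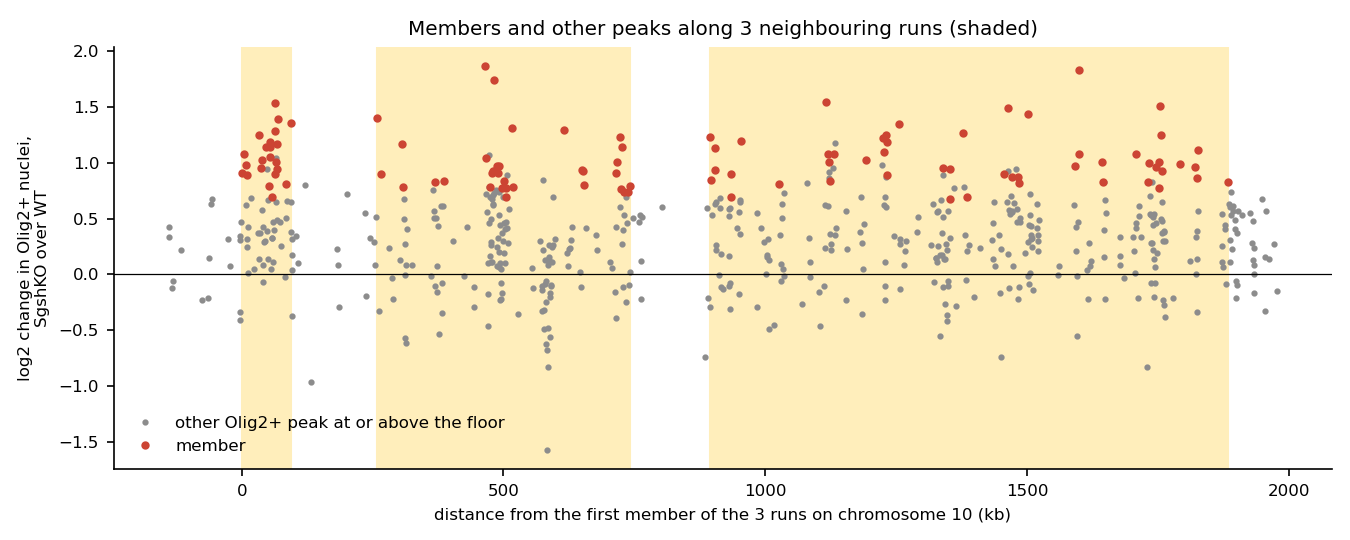
Log2 change in Olig2+ nuclei of each peak with a lower SgshKO value of at least 15, against its distance (kb) from the first member of the 3 runs on chromosome 10; members are red, other peaks grey and the runs shaded. Most grey points inside the runs are also above 0, with medians of 0.37, 0.16 and 0.29 from left to right.

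The members had 1332 nearest genes, of which 236 had 2 or more and held 625 members. The genes named next were chosen after their values were seen and stand for no group. Others with like shares were Bdkrb2 and Kit (3 of 3 each), Crlf2 (4 of 6) and Polrmt (7 of 14). Notch1, the receptor whose signal holds back oligodendrocyte maturation, had 6 members among 11 peaks at or above 15 tags. Its highest member, an intron peak 15847 bp from the start site, had 45.6 and 34.8 tags in WT and 88.5 and 99.0 in SgshKO, and its promoter had 22.8 and 23.01, then 39.4 and 46.5. Mfng, an enzyme that modifies Notch receptors, had 4 of 6. Sox6, a repressor of oligodendrocyte maturation, had 4 of 6, with 47.2 and 59.3 tags in WT and 132 and 146 in SgshKO at the highest. Ephb2 had 4 of 4. Klf10, a TGF-beta-induced zinc finger repressor, had 4 of 5, with 207 and 194 tags at the highest in WT and 384 and 376 in SgshKO. Irf2bpl had 8 of 19 and Smad6, an inhibitor of SMAD signalling, 4 of 12.

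Lists of genes were read by the nearest gene of each peak, beside the 4.8% of peaks at or above 15 tags that were members. The list of the disease-associated oligodendrocyte state had 5 members among 43 such peaks (11.6%). The start-site peak of Apoe, the lipid carrier apolipoprotein E, had 48.2 and 48.1 tags in WT and 116.2 and 119.7 in SgshKO, and a peak farther upstream had 5.19 and 8.18, then 16.6 and 20.6. C4b, complement component 4, had 15.6 and 11.2, then 59.6 and 34.6. Serpina3n, a secreted protease inhibitor, had 13.5 and 11.8, then 28.3 and 34.6. Cd63, a tetraspanin of late endosomes and lysosomes, had 14.0 and 12.8, then 24.0 and 30.6. The median log2 change of all 119 peaks of this list was -0.30.

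Immediate-early genes had 5 members among 95 peaks (5.26%), at Fos, Fosb, Junb and Nr4a1 (2). The higher Nr4a1 peak had 74.7 and 68.5 tags in WT and 116.2 and 132.3 in SgshKO. At genes of the oligodendrocyte itself there were 4 among 209 peaks of the mature markers (1.91%), at Opalin (2), Mag and Cnp, and 3 among 119 of the precursor and lineage markers (2.52%), at Nkx2-2, Olig1 and Olig2. Myelin lipid and cholesterol genes had 2 of 73, at Scd2 and Ugt8a. Lysosome genes had 1 of 45, the start-site peak of Lamp1, a membrane protein of the lysosome, with 92.8 and 92.6 tags in WT and 172 and 155 in SgshKO. The MiT/TFE genes and their regulators had 1 of 39, a peak 55148 bp from the start of Mitf (39.9 and 38.9, then 67.6 and 70.5).

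Glucocorticoid-responsive genes had 2 of 90, at Mt2 and Per1, while the list's peaks had a median log2 change of -0.63. Interferon and antigen presentation genes had 1 of 9, at Irf1, and stress genes 1 of 23, at Hsp90aa1. Of the markers of other cells, the astrocyte list had 1 of 18 (5.56%), at Fgfr3. The microglia list had 4 of 20 (20%), the highest share of the lists, all at Sall1, a transcription factor that defines microglia (the highest with 53.9 and 56.8 tags in WT and 119.3 and 93.1 in SgshKO). All were intergenic and far from its start, and none of those 4 overlapped a microglia peak. Neuron, endothelial and blood myeloid markers had no member.

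Most members had no counterpart in the other sorts. Of the 1726, 902 (52.3%) overlapped no NeuN+ and no microglia peak, against 35.2% of the other Olig2+ peaks at or above 15 tags. A NeuN+ peak was overlapped by 705 members (40.8% against 58.7%), at 701 distinct NeuN+ peaks, and a microglia peak by 533 (30.9% against 50.0%), at 532. Among members with a mean SgshKO value of 100 or more tags these shares were 52.1% and 44.2%, against 77.8% and 74.4% of other peaks of that height. Of the peaks of that height, 115 members and 2266 others lay farther than 1000 bp from a start site. The gaps were smaller there, with shares of 26.1% and 20% of members, against 36.5% and 29.2% of others. The NeuN+ and microglia libraries were not used to choose the members, and each table was fitted on its own.

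In NeuN+ nuclei the members' places were mostly lower in SgshKO, as were those of other Olig2+ peaks. Of the 705, 258 fell (36.6%, where 19.6% of all NeuN+ peaks were called lower) and 30 rose (4.26%, where 10.2% were called higher). At the other Olig2+ peaks at or above 15 tags the shares were 47.8% lower and 1.47% higher. The median log2 change was -0.49 at members, -0.52 at those others and -0.23 over the table. Within 1000 bp of a start site 187 of 356 fell (52.5%, all peaks 44.9%) and 11 rose (3.09%, all peaks 1.74%). Of the other Olig2+ peaks there 59.7% fell and 0.996% rose. Farther away 71 of 349 fell (20.3%, all peaks 12.6%) and 19 rose (5.44%, all peaks 12.6%). Of the other Olig2+ peaks farther away 29.1% fell and 2.22% rose. Both SgshKO libraries were below both WT libraries at 456 places (all peaks 44.4%) and above at 65 (all peaks 24.1%).

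The share of reads in peaks moved with this result: it was 26.7% and 25.9% in the WT NeuN+ libraries and 21.5% and 21.2% in SgshKO. The start-site peaks of the 10 neuron markers summed to 1050.2 and 952 tags in WT and 546 and 568 in SgshKO. Those of the mature oligodendrocyte markers (157 and 138, then 76.1 and 78.1), the precursor markers (109.9 and 90.9, then 52.4 and 64.1) and the microglia markers (54.4 and 48.0, then 34.2 and 32.4) were lower in SgshKO too. The part of these in the members' changes was not tested. With libraries scaled by their tags inside peaks, 135 places fell and 49 rose, with a table share of 8.86% and 17.6%. The difference between the members' and the table's median was -0.26 in both scalings. Calls were fewer with a WT library left out, and none remained in the table with an SgshKO library left out. Those fits leave 1 library in a group, so medians are given for them. Without WT replicate 1 the median log2 change was -0.47 at members and -0.22 over the table. It was -0.55 and -0.24 without WT replicate 2, -0.49 and -0.22 without SgshKO replicate 1, and -0.49 and -0.19 without SgshKO replicate 2. On all 4 libraries edgeR called 173 lower (24.5%, all peaks 11.4%) and 45 higher (6.38%, all peaks 15.96%). DESeq2 called 31 lower (4.4%, all peaks 2.07%) and 14 higher (1.99%, all peaks 2.48%).

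The members that fell with the smallest p in NeuN+ nuclei were at Klf10, Trib2 and Ikbip. The Klf10 promoter held 306 and 282 tags in WT NeuN+ nuclei and 117 and 133 in SgshKO (log2 change -1.23, SE 0.10, adjusted p 3.02e-07). The groups did not overlap, and in Olig2+ nuclei the same peak held 72.6 and 86.9, then 165 and 146. The promoter of Trib2, a pseudokinase gene, held 215 and 200.5, then 69.1 and 88.9 (adjusted p 9.09e-07). The Ikbip promoter held 430 and 386, then 224 and 223, and the Nr4a1 promoter 190.3 and 177, then 116 and 109 (log2 change -0.70, adjusted p 0.000108), a call lost after quantile normalization and with DESeq2. At Irf1, a transcription factor of the interferon response, the values were 26.6 and 23.7, then 9.07 and 17.1 (adjusted p 0.0171). This call was lost with any of the 4 libraries left out, under each of the 3 other scalings and with edgeR and DESeq2 (adjusted p up to 0.470). Lamp1 and Hsp90aa1 were not called: Lamp1 held 63.4 and 48.6 tags in WT and 54.4 and 55.9 in SgshKO, and Hsp90aa1 170 and 163, then 167 and 172.

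The 30 places that rose in NeuN+ nuclei included the Col19a1 peak and 4 of the 5 members at Pisd-ps3 on an unplaced contig, without which 25 rose. The Pisd-ps3 start-site peak held 438 and 485 tags in WT and 1185 and 1218 in SgshKO (log2 change 1.38, SE 0.05, adjusted p 2.15e-11). Acin1, which encodes an RNA-binding protein of the exon junction complex, held 136 and 138, then 244 and 247 (log2 change 0.83, adjusted p 6.31e-06). An intergenic peak upstream of Plekhh2 held 19.3 and 18.1, then 61.4 and 68.6 (log2 change 1.75). The neighbouring promoters of Deaf1, a transcription factor gene, and Tmem80 held 64.6 and 80.8, then 107 and 112, and 80.4 and 97.1, then 121 and 121. In Olig2+ nuclei the Deaf1 peak held 158 and 144, then 417 and 462, and in microglia it held 120.1 and 119.5, then 75.3 and 66.8, which was not called (adjusted p 0.136). Deaf1 and Tmem80 were named after their values were seen.

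**Figure D5:**
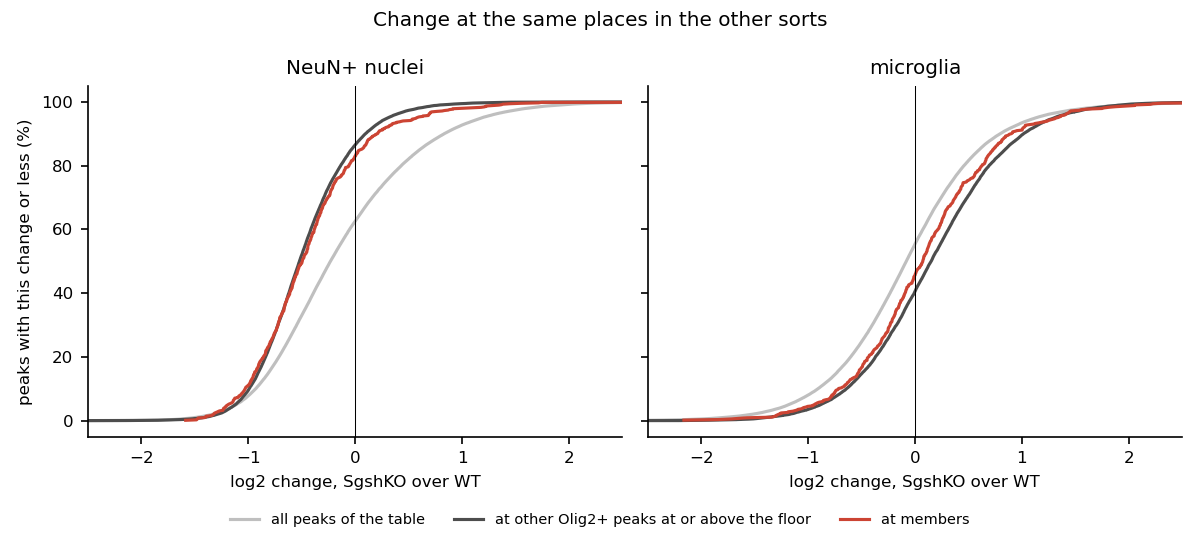
Cumulative share (%) of peaks by log2 change in NeuN+ nuclei (left) and microglia (right), for all peaks of the table, peaks overlapped by an Olig2+ peak at or above 15 tags that is no member, and peaks overlapped by a member. In NeuN+ nuclei both overlapped sets lie left of the table, with medians of -0.49 at members and -0.52 at the others against -0.23; in microglia they lie to its right, with 0.07 and 0.15 against -0.08.

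In microglia more of the members' places rose than fell. Of the 533, 45 rose (8.44%, where 5.05% of all microglia peaks were called higher) and 8 fell (1.5%, all peaks 2.33%). Other Olig2+ peaks at or above 15 tags rose in 12.3% and fell in 1.14% of cases. The median log2 change was 0.07 at members, 0.15 at those others and -0.08 over the table. Within 1000 bp of a start site 24 of 321 rose (7.48%, all peaks 8.59%) and 4 fell (1.25%, all peaks 1.2%). Of the other Olig2+ peaks there 15.5% rose, and the median was 0.02 at members and 0.28 at those others. Farther away 21 of 212 rose (9.91%, all peaks 3.8%) and 4 fell (1.89%, all peaks 2.72%), with a median of 0.13 at members and -0.13 at the other Olig2+ peaks, of which 5.68% rose. Both SgshKO libraries were above both WT libraries at 169 places (all peaks 23%) and below at 124 (all peaks 28.1%).

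These counts rest on few libraries. Rises and falls were fewer without a WT library of microglia and more numerous without an SgshKO library. Those fits leave 1 library in a group, so medians are given for them. Without WT replicate 1 of microglia the median log2 change was 0.12 at members and 0.02 over the table. Without WT replicate 2 it was 0.005 and -0.18. On all 4 libraries edgeR called 85 higher (15.9%, all peaks 10.3%) and 21 lower (3.94%, all peaks 5.07%). DESeq2 called 47 higher (9.04%, all peaks 5.09%) and 1 lower (0.192%, all peaks 0.513%). The share of reads in peaks was 55.8% and 48.7% in WT and 67.4% and 53.7% in SgshKO microglia. With libraries scaled by their tags inside peaks 52 rose (9.76%, all peaks 5.56%) and 53 fell (9.94%, all peaks 10.3%). Start-site peaks of 9 microglia markers summed to 2725 and 2400.0 tags in WT and 3081 and 2378 in SgshKO. The part of these in the result was not tested. The median of the members, 0.07, was then -0.13. It was -0.06 without SgshKO replicate 1 (-0.27 over the table) and 0.24 without SgshKO replicate 2 (0.15 over the table). Its gap to the table's median was 0.15 in both scalings, 0.06 after quantile normalization and 0.09 without SgshKO replicate 2. Of the 53 called places, 4 were called whichever library was left out, at Pgpep1, Anxa5, Rassf3 and Ccdc85c.

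Those 4 are start-site peaks. Pgpep1, which encodes a pyroglutamyl peptidase, held 175 and 162 tags in WT microglia and 867 and 699 in SgshKO (log2 change 2.20, adjusted p 2.96e-07), and 47.7 and 48.1, then 104 and 105 in Olig2+ nuclei. Anxa5, a protein that binds phosphatidylserine on dying cells, held 194 and 129, then 713 and 775 (log2 change 2.23, adjusted p 4.24e-07), and 127 and 124, then 252 and 240.0 in Olig2+ nuclei. Rassf3 held 155 and 120.3, then 409 and 705 (log2 change 1.97), and Ccdc85c 112 and 108, then 290.0 and 490.2 (log2 change 1.77). In each the microglia groups did not overlap. In NeuN+ nuclei Pgpep1, Rassf3 and Ccdc85c fell (log2 changes of -0.97, -0.76 and -0.73), while Anxa5 was not called.

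The Apoe and Apoc1 start sites, neighbours on chromosome 7, rose in microglia as well. Apoe held 16.4 and 15.2 tags in WT microglia and 64.9 and 52.0 in SgshKO (log2 change 1.81, SE 0.39, adjusted p 0.00265). Apoc1 held 78.6 and 31.3, then 212 and 208 (log2 change 2.06, adjusted p 8.58e-05), and in Olig2+ nuclei 71.1 and 79.3, then 166 and 160.2. Without WT replicate 2 of microglia neither was called (adjusted p up to 0.203 and 0.220), and without WT replicate 1 Apoe was not. Near them on the same chromosome, an intron peak of Bcl3 held 158 and 130, then 324 and 280.4 in microglia (log2 change 1.07, adjusted p 0.0112). This call was lost without WT replicate 1 and also without WT replicate 2. The intron peak was chosen outside the rule for named members. The Bcl3 promoter held 76.9 and 58.5, then 126 and 110.5, and was not called (adjusted p 0.112). No NeuN+ peak was listed at the Apoe or Apoc1 start sites or at the Bcl3 promoter.

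Of the other places that rose in microglia, 7 are given here, chosen after their values were seen. The Notch1 promoter held 143 and 136, then 312 and 253 (adjusted p 0.0173). Skil and Smad6, both inhibitors of TGF-beta family signalling, held 563 and 618, then 1167 and 1199, and 394 and 349, then 791 and 704. The promoter of Ltbr, the lymphotoxin beta receptor, held 188 and 149, then 329 and 278 (adjusted p 0.0473). An intron peak of Xylt1, whose enzyme starts the chains of heparan and chondroitin sulfate, held 4.32 and 5.08, then 25.1 and 29.7 (adjusted p 0.00173). An intron peak of Sdc4, which encodes the heparan sulfate proteoglycan syndecan-4, held 3.46 and 0, then 31.2 and 11.1 (adjusted p 0.000602). In the WT microglia libraries 3 reads make 2.59 and 2.54 tags, so the WT values at Xylt1 and Sdc4 rest on few reads. Mt2 held 64.8 and 66.9, then 140.2 and 118 (adjusted p 0.0496). All of these lost their calls without WT replicate 2 of microglia, and all but Sdc4 also without WT replicate 1. Quantile normalization ended those at Skil, Smad6 and Ltbr, and a pseudocount of 0.5 those at Ltbr and Mt2.

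The 8 places that fell in microglia were at Naaladl2, S1pr4, Klf10, Per1, Zfp286, Gm996, Ngef and Chrd. Naaladl2 held 19.9 and 37.3 tags in WT and 4.33 and 6.5 in SgshKO (log2 change -2.16, adjusted p 0.00393). A Klf10 peak upstream of the promoter held 29.4 and 20.3, then 7.79 and 6.5 (adjusted p 0.0248), while the Klf10 promoter was not called in microglia (304 and 321, then 296 and 356). An exon peak of Per1, a gene of the circadian clock, held 80.4 and 70.3, then 38.1 and 31.6 (adjusted p 0.0456). The Klf10, Per1, S1pr4, Ngef and Chrd calls were also lost with DESeq2. That method called only 1 fall at the members' places, so the Naaladl2, Zfp286 and Gm996 calls did not all hold with it. A pseudocount of 0.5 also ended the calls at Zfp286 and Ngef, and quantile normalization those at Zfp286 and Gm996. The Zfp286 call was lost by median of ratios and without SgshKO replicate 1 too. All 8 calls were lost without WT replicate 1 of microglia and also without WT replicate 2.

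Calls in the other sorts were then set side by side. By limma, 18 of the 414 member places with a peak in both fell in NeuN+ nuclei and rose in microglia (4.35%, against 10.4% of other Olig2+ peaks at or above 15 tags), and 3 fell in both (0.725% against 0.539%). Of the 30 that rose in NeuN+ nuclei, 18 had no microglia peak and 12 were not called there. The Ikbip promoter was among the places that fell in NeuN+ nuclei and rose in microglia, with 46.7 and 38.1 tags, then 113 and 136 in microglia (adjusted p 0.00207). Of the 705 members with a NeuN+ peak, 12 lay at one that the same rule takes there (1.70%, against 0.418% of the other Olig2+ peaks and 2.96% of all NeuN+ peaks), which is 0.377% of that list. Of the 533 with a microglia peak it was 53 (9.94%, against 14.3% and 6.16%), or 0.938% of that list. With the genotypes exchanged, the rule took the NeuN+ peak at 131 of the 705 members (7897 of all 107627 NeuN+ peaks). It took the microglia peak at 28 of the 533 (4600 of all 91770 microglia peaks).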

How the data were processed

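The members and the lists were chosen with earlier results of these data known. Reads were mapped to mm10 with Bowtie2 and processed with HOMER, per the submitters' processing notes. Each deposited table holds the peaks of 1 sort with the authors' signal, tags per peak scaled to 10000000 per library per the file headers, and the authors' Peak Score, a score of 540 to 1000. Multiplying by the header totals recovered whole reads (100% of values within 0.05). The handling of duplicates and multiply mapped reads is not given in the sources used here. Library totals were 15044194 to 19555924 reads for Olig2+ nuclei, 14326703 to 17706971 for NeuN+ nuclei and 10771659 to 11804222 for microglia. Every tag column was tied to its library by title (0 unmatched).

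Each sort's table was fitted separately, on log2(tags + 1), with limma 3.58.1 in R 4.3.3 (lmFit, eBayes with trend, two-sided). Calls needed p under 0.05 after Benjamini-Hochberg adjustment across every peak of that table, and rose and fell are used for called places. Fold changes on this scale understate those of low peaks. The fit was tried on simulated data in which few peaks changed and the overall scale did not. The NeuN+ data differ in both, so no conclusion is drawn from that trial. A member's place in another sort is the peak with the largest overlap, at least 1 bp. Gene density and names used the RefSeq table of GRCm38.p6, and 5 member symbols turned into dates were restored. Named members are those with the largest ratios (10 in all, 6 at start sites), up to 4 for the 4 genes and 4 runs with most members, the smallest p in the other sorts (5 rises and 3 falls each), 3 on each side of the ratio threshold and up to 2 per list. Members named outside this rule are said to be, except the 5 or fewer of a list and the 8 microglia falls. Alternatives were pseudocounts of 0.5 and 5, a filter on the lowest 25% of peaks, 3 other scalings, edgeR 4.0.16 and DESeq2 1.42.0 (both run on recovered reads), a block for the replicate number, a reciprocal overlap of 50%, leaving out each library and other thresholds of the rule.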

Additional observations from a re-analysis of the deposited data

Results flagged for a closer look

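These named members were higher in SgshKO Olig2+ nuclei by the rule, while at the overlapping peak of another sort both SgshKO libraries lay below both WT libraries. The difference between sorts was not tested, and no explanation is weighed. In NeuN+ nuclei the log2 changes on the chromosome 10 runs were -0.82 at Mir3057, -1.23 and -0.60 at Polrmt, -0.66 at Nfic, -0.66 at Zbtb7a, -0.60 at Arid3a, -0.57 at Cbarp, -1.30 at Rps15, -0.89 at Rnf126 and -0.33 at S1pr4. Elsewhere in NeuN+ nuclei they were -1.28 at Eya4, -0.41 at Irf2bpl, -1.23 at the Klf10 promoter, -1.39 at Trib2, -0.54 at the Nr4a1 peak farther from the start site, -0.95 at Irf1, -1.03 at Lmo4 and -0.38 at Naaladl2. Members that rose in microglia had NeuN+ values of -0.86 (Ikbip), -0.97 (Pgpep1), -0.28 (Anxa5), -0.76 (Rassf3) and -0.73 (Ccdc85c). In microglia the log2 changes were -0.18 at Flnc, -0.71 at Pisd-ps3, -2.16 at Naaladl2, -1.34 at S1pr4, -1.65 at the upstream Klf10 peak and -1.09 at Per1.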

How the results depend on the processing

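The number of members, 1726, moved with the rule: 2924 at a floor of 10 tags, 808 at 30, 375 at a ratio of 2 and 4725 at 1.25, and 3114 to 3970 with 1 Olig2+ library left out. Members with another within 100000 bp, 830, became 1814, 227, 114 and 3103 under those rules, 549 at a Peak Score of 1000, 1246 within 500000 bp and 1855 to 2581 with a library left out. Those near a start site, 461, became 256 at a floor of 30 and 70 at a ratio of 2.

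In NeuN+ nuclei rises (30) and falls (258) became 49 and 135 scaled by tags inside peaks, 43 and 167 by median of ratios, 50 and 86 by quantiles, 14 and 31 with DESeq2, and 0 to 19 and 0 to 131 with a library left out. In microglia rises (45) became 77 by median of ratios, 85 with edgeR and 5 to 87 with a library left out. Microglia falls (8) became 53 by tags inside peaks, 16 by median of ratios, 28 by quantiles, 21 with edgeR, 1 with DESeq2, 5 with a reciprocal overlap of 50%, and 0 to 41 with a library left out. The shares of all peaks called changed too. NeuN+ rises (10.2%) and falls (19.6%) became 17.6% and 8.86% by tags inside peaks and 15.1% and 11.0% by median of ratios. They became 9.64% and 5.92% by quantiles and 2.48% and 2.07% with DESeq2. Microglia rises (5.05%) became 9.27% by median of ratios and 10.3% with edgeR. Microglia falls (2.33%) became 10.3% by tags inside peaks, 3.75% by median of ratios, 4.36% by quantiles, 5.07% with edgeR and 0.513% with DESeq2. The NeuN+ call at Rnf114 (-0.45) reversed to 0.031 by quantiles. The cause was not tested. Same-numbered libraries did not deviate together (r of 0.000688, 0.00361 and 0.0420 in Olig2+, NeuN+ and microglia). The replicate block gave 33 rises and 287 falls in NeuN+ nuclei (all peaks 11.3% and 21.9%). In microglia it gave 82 and 27 (all peaks 9.68% and 6.11%). Without the contig and Col19a1 members, chosen after seeing the data, 25 NeuN+ places rose. With 2 libraries a group, a place that was not called is not shown to be unchanged.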
